A study of Mus musculus with 6 samples.

Results

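The ligands of the epidermal growth factor (EGF) family and the ERBB receptors that bind them were examined in primary mouse renal tubular epithelial cells with and without a Cre recombinase that targets Setd2. The set was taken by name and holds 10 genes, 7 ligands and 3 receptors, of the 48526 genes listed in the count tables. All 10 were found under GENCODE M21 symbols and all passed the filter on low counts. The study sequenced 6 cultures. Those called KO came from Setd2(F/F)Ksp-Cre+ mice (3 libraries) and those called WT from Setd2(F/F) littermates without Cre (3 libraries), so both groups carried the floxed alleles. The mice were 4 to 5 weeks old, and the Ksp promoter that drives Cre is that of Cdh16, whose product is a cadherin of tubule epithelium. Setd2 encodes the enzyme that trimethylates lysine 36 of histone H3. Cortex was dissociated and plated without a described step that selects one cell type, in a medium that for both groups contained 20 ng/ml EGF and 100 nM hydrocortisone. Every measurement below was thus made under added EGF. An effect of Cre and one of Setd2 loss cannot be told apart. Nothing in the labels says whether replicates of a group are separate animals, and p-values describe the spread between libraries only.

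EGF family ligands are made as membrane-anchored precursors that metalloproteinases cut to release the active growth factor. A ligand brings 2 receptors together, and their kinase domains then phosphorylate each other and start the RAS to ERK and PI3K to AKT relays. In the kidney, Egf is a product of the thick ascending limb and distal convoluted tubule, EGFR is present along the tubule, and the pathway is known for its part in the repair and the fibrosis of injured tubules.

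Libraries held 86078636 to 106974842 counted reads. Setd2 transcript stood at 168.1 ± 16.3 CPM in WT, where CPM is the read count scaled to library size with TMM factors, and KO libraries averaged 158.5 ± 4.86 CPM (SD, n = 3 each). Which exons are floxed is not stated in these sources, so this gene-level count does not check the deletion. Xist, which is transcribed from the inactive X, was at 507 and 606 CPM in KO replicates 2 and 3 and below 1 CPM in the other 4 libraries, so sex and group partly coincide. Markers of tubular epithelium were high in all libraries. Their sum over 10 genes ran from 6911 to 8108 CPM, and Cdh16 itself rose from 735 ± 22.4 to 884 ± 60.2 CPM (edgeR adjusted p = 0.0366).

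Among the 10 genes, Btc rose in KO and the other 9 did not pass the test, with no gene called lower. By edgeR's quasi-likelihood test, with a gene called when its p adjusted by Benjamini-Hochberg was below 0.05, 12% of the 17571 genes tested were called higher in KO, 9.08% lower and 21% either way, and the count of 1 in 10 stands beside these shares. At an unadjusted p below 0.05 Hbegf was lower and Btc and Epgn were higher. The median log2 fold change of the 10 genes was -0.01, beside -0.01 over all genes tested, and the median of its absolute size was 0.07, beside 0.21. The 3 KO values lay wholly above or below the 3 WT values for 4 genes (Btc and Epgn above, Hbegf and Tgfa below), where 41.9% of all genes tested did so.

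**Figure D1:**
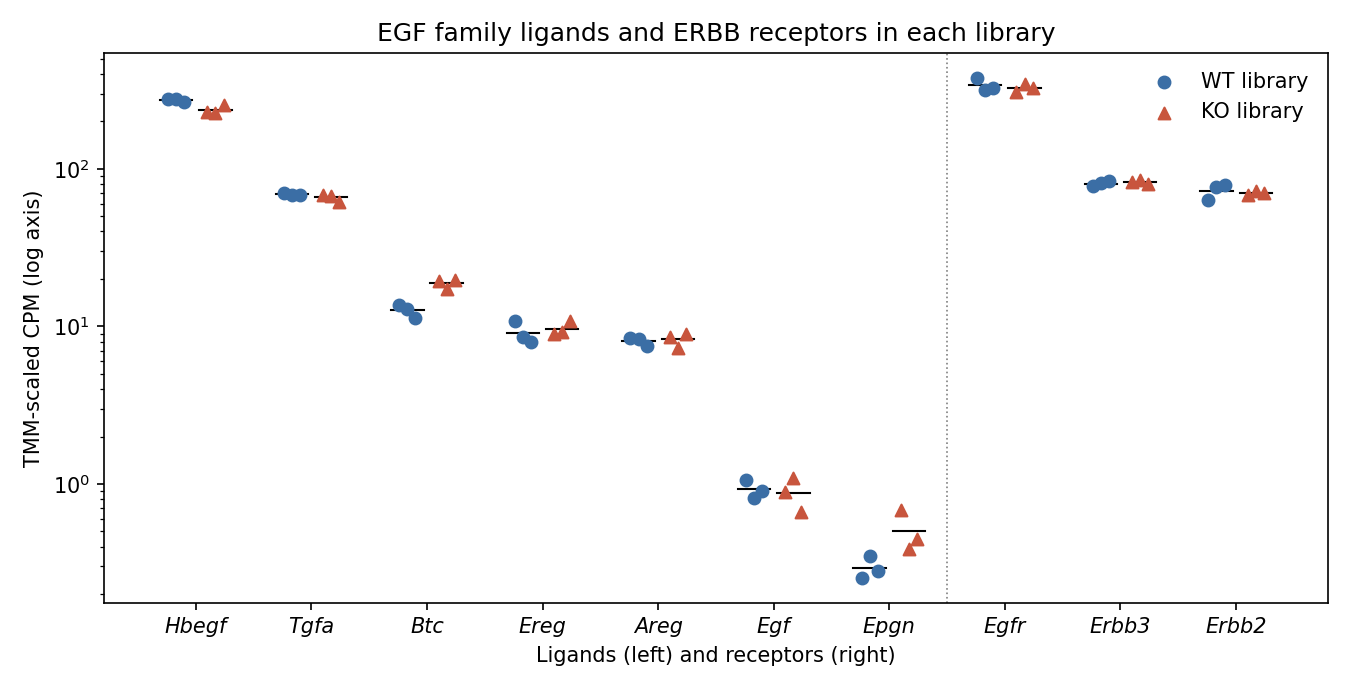
TMM-scaled CPM on a log axis for the 7 ligands (left of the dotted line) and 3 receptors (right); each point is 1 library (circles WT, triangles KO) and each bar the mean of 3. The KO points of Btc, 17.1 to 19.6 CPM, stand above its WT points, 11.2 to 13.7 CPM, the groups of Epgn, Hbegf and Tgfa are also apart, and the points of the 3 receptors overlap between groups.

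Btc encodes betacellulin, a ligand of EGFR and ERBB4. The gene (ENSMUSG00000082361) lies on the minus strand of chromosome 5 at 91357261 to 91402994 (GRCm38). Its level was 13.7, 13.0 and 11.2 CPM in WT replicates 1 to 3, and KO replicates 1 to 3 were at 19.5, 17.1 and 19.6 CPM. No KO library was as low as the highest WT library. The log2 fold change was 0.57 ± 0.10 (SE), a 1.49-fold rise with a 95% interval of 1.27 to 1.74, and edgeR's quasi-likelihood adjusted p was 0.00331. KO replicate 1, which like the WT libraries was low in Xist, was at 19.5 CPM and so as high as KO replicate 3. With KO replicate 1 as the lone KO library and its spread assumed to be that of WT, the log2 fold change was 0.63 and the edgeR adjusted p of 0.058 missed the threshold, and with the Xist-positive libraries as a model term the adjusted p was 0.0334. In bulk RNA a change in the number of cells that express a gene and a change in its RNA per cell cannot be told apart.

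Btc is the last of 4 EGF family genes on a stretch of 376 kb of chromosome 5, from 91027464 to 91402994, in the order Epgn, Ereg, Areg and Btc. Btc alone of the 4 is transcribed from the minus strand. Of the other 3, none passed the test, with log2 fold changes of 0.77 ± 0.29 (SE) for Epgn, 0.08 ± 0.13 for Ereg and 0.03 ± 0.11 for Areg. Areg starts 263 kb from the start of Btc, and the nearest tested coding gene on the far side, Parm1, 115 kb away, had a log2 fold change of -0.08 ± 0.14. Within 500 kb of the Btc start 7 tested coding genes were found. Apart from Btc, the chemokine gene Cxcl2 at the edge of that window was called, and it fell by 0.47 on the log2 scale (edgeR adjusted p = 0.00253).

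The 250 bases before the start of Btc, the gene of the set that changed, and of Areg, its nearest neighbour in the set, are shown to set the starts of 2 linked ligand genes side by side. The difference between their changes was not tested. They are RefSeq sequences of GRCm38.p6, in the direction of transcription, from chr5:91402995-91403244 (minus strand) for Btc and chr5:91139349-91139598 (plus strand) for Areg. Capitals mark matches, on either strand, to the cAMP response element TGACGTCA, the AP-1 motif TGANTCA, the GC box GGGCGG and the TATA motif TATAAA.
Btc: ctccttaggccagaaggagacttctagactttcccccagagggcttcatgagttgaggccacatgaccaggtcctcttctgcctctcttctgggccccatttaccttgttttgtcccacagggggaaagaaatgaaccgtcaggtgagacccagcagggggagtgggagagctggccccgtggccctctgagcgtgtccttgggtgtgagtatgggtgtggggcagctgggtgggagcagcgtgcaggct
Areg: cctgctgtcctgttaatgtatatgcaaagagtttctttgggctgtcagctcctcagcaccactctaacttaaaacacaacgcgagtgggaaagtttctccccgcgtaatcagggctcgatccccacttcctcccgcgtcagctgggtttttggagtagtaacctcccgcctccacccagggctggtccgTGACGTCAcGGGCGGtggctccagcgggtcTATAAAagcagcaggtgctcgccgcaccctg

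The Areg window holds a TATA motif that begins 31 bases before the start, a GC box at 52 bases and a cAMP response element at 61 bases, and these matches do not overlap. The Btc window holds none of the 4 motifs. The windows of Erbb2 and Egf, genes that were not called, also hold none. Among 32851 RefSeq windows of 250 bases the TATA motif was found in 12.4%, the GC box in 32.7%, the AP-1 motif in 6.75% and the cAMP response element in 1.55%. CpG dinucleotides numbered 4 in the Btc window and 15 in the Areg window, where the median window had 6. Promoters of 7 of the 10 genes were matched.

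Hbegf, heparin-binding EGF-like growth factor, was the most abundant ligand (ENSMUSG00000024486, chromosome 18, 36504927 to 36515805). It was at 276, 276 and 266 CPM in WT replicates 1 to 3, and KO replicates 1 to 3 were at 229.7, 226 and 253 CPM. The KO libraries lay below the WT libraries, with KO replicate 3 closest to them. The log2 fold change was -0.21 ± 0.07 (SE), or 0.866-fold with a 95% interval of 0.775 to 0.967. The edgeR adjusted p of 0.0625 missed the threshold, which it passed only with all genes of any count tested (0.0426) among 16 alternatives.

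Tgfa encodes TGF-alpha, a ligand of EGFR alone (ENSMUSG00000029999, chromosome 6, 86195223 to 86275719). It stood at 70.2, 68.2 and 68.3 CPM in WT and 68.1, 67.6 and 61.6 CPM in KO. The groups did not overlap, though WT replicate 2 and KO replicate 1 lay close together, and the fold was 0.955 with a 95% interval of 0.856 to 1.06 (edgeR adjusted p = 0.53).

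Epgn (epigen, a ligand of low affinity for EGFR; ENSMUSG00000035020, chromosome 5, 91027464 to 91035215) was scarce. It had 22, 37 and 27 reads in WT replicates 1 to 3 and 60, 37 and 44 reads in KO replicates 1 to 3, or 0.255, 0.348 and 0.280 CPM against 0.680, 0.389 and 0.448 CPM. The KO libraries were above the WT libraries, with KO replicate 1 the highest. Its fold of 1.7 had a wide 95% interval, 1.1 to 2.63, and the edgeR adjusted p was 0.0783. Without KO replicate 1 the log2 fold change went from 0.77 to 0.52 (adjusted p = 0.283), and with the Xist-positive libraries as a model term to 1.20 (0.0613).

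Areg (amphiregulin; ENSMUSG00000029378, chromosome 5, 91139599 to 91148432) and Ereg (epiregulin; ENSMUSG00000029377, chromosome 5, 91074622 to 91093646) are ligands whose transcription ERK signalling can induce. Areg ran from 7.53 to 8.47 CPM in WT and from 7.29 to 8.99 CPM in KO. Ereg ran from 7.94 to 10.8 CPM in WT and from 8.88 to 10.8 CPM in KO. Both overlapped between groups, and their folds were 1.02 (95% interval 0.863 to 1.21) and 1.06 (0.867 to 1.29).

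Egf itself (ENSMUSG00000028017, chromosome 3, 129677565 to 129755316) was near the lower limit of the measurement, with 65 to 104 reads per library. It averaged 0.928 ± 0.125 CPM over WT libraries and 0.88 ± 0.215 CPM over KO libraries (SD, n = 3 each), a fold of 0.949 with a 95% interval of 0.675 to 1.33 (edgeR adjusted p = 0.839). Markers of the distal segments that make Egf in the kidney ranged widely. Umod, the defining product of the thick ascending limb, was at 0.741 to 0.987 CPM, the distal cotransporter gene Slc12a3 at 0.857 to 2.2 CPM and Pvalb at 1 read in all libraries together. Other markers of these segments were higher, with WT means of 6.16 ± 0.297 CPM for Slc12a1, 10.7 ± 0.392 CPM for Cldn16 and 16.4 ± 1.93 CPM for Trpm6, and Wnk1, which many cell types express, was at 626 ± 84.3 CPM. Of the 9 tested markers of these segments 2 were called higher, Slc12a3 and the potassium channel gene Kcnj1, and none lower. That is 22.2% called, beside 21% of all genes tested called either way and 12% called higher.

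Levels of different genes were compared as CPM per kb of merged exon. On this scale the order of the ligands in WT was Hbegf (56.4 ± 1.1), Tgfa (10.6 ± 0.17), Areg (6.67 ± 0.41), Btc (2.79 ± 0.28), Ereg (2.21 ± 0.37), Epgn (0.163 ± 0.027) and Egf (0.0823 ± 0.011; SD, n = 3 each). Btc, at 2.48 to 3.03 CPM per kb, and Ereg, at 1.92 to 2.63, overlapped in WT, and the other neighbours in this order did not. The order was the same in KO, where Btc, at 3.79 to 4.35 CPM per kb, stood above all 3 values of Ereg, 2.15 to 2.61.

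Hbegf made up most of the summed ligand level per length in every library. Its share was 70.7%, 71.7% and 72.1% in WT replicates 1 to 3 and 66.0%, 67.2% and 68.4% in KO replicates 1 to 3. Btc held 3.75%, 3.60% and 3.25% in WT and 6.0%, 5.46% and 5.69% in KO. Neither share overlapped between groups. The same held for Epgn, with 0.17% to 0.24% in WT and 0.31% to 0.52% in KO. For Areg the highest WT share (8.636%) lay just under the lowest KO share (8.641%). Shares of a common sum are not independent of each other. The sum over the 7 ligands was 78.9 ± 2.2 CPM per kb in WT libraries and 72.6 ± 3.55 in KO libraries (SD, n = 3 each), and its highest KO library (76.44, KO replicate 3) lay just under its lowest WT library (76.46, WT replicate 3). The shares of Tgfa, with 13.2% to 13.8% in WT and 12.4% to 15.0% in KO, and of Egf, with less than 1% throughout, overlapped. So did that of Ereg, with 2.52% to 3.25% in WT and 2.99% to 3.41% in KO.

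**Figure D2:**
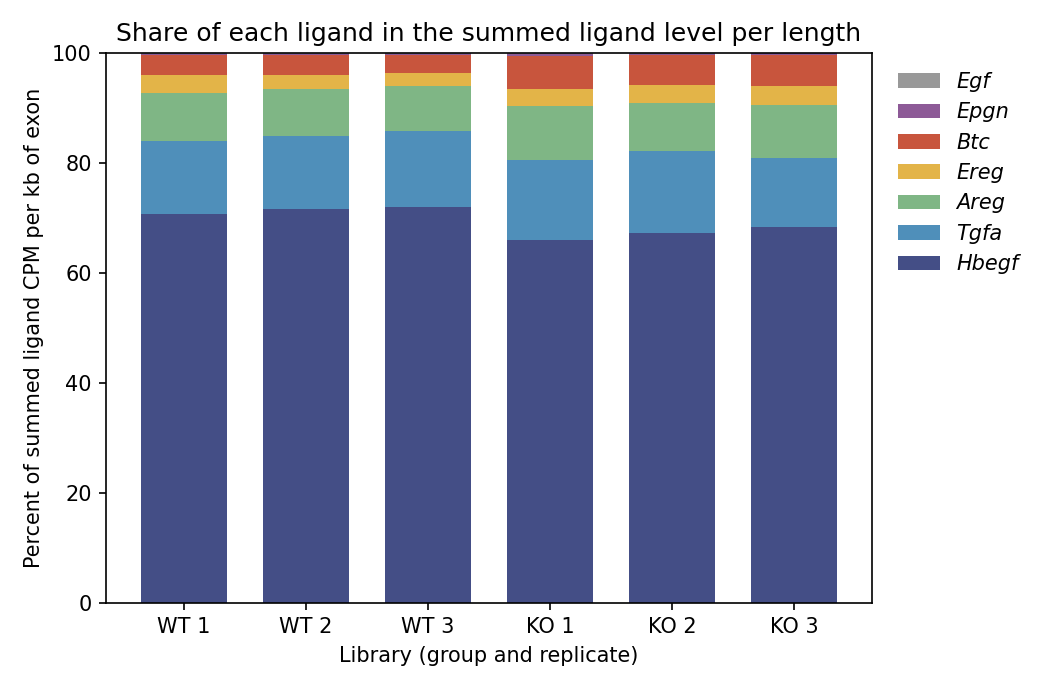
Stacked bars of the percent of the summed CPM per kb of exon that each of the 7 ligands takes, 1 bar per library (3 WT, 3 KO). Hbegf takes 70.7% to 72.1% in WT and 66.0% to 68.4% in KO, and the band of Btc is wider in the KO bars.

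The 3 receptors overlapped between the groups and none passed the test. Egfr, the receptor of all 7 ligands (ENSMUSG00000020122, chromosome 11, 16752203 to 16918158), was at 376, 316 and 326 CPM in WT replicates 1 to 3, and KO replicates 1 to 3 were at 305, 347 and 324 CPM. WT replicate 1 was the highest and KO replicate 1 the lowest. Its fold was 0.959 with a 95% interval of 0.84 to 1.09 (edgeR adjusted p = 0.649).

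Erbb2 encodes the receptor that binds no ligand and serves as a dimer partner (ENSMUSG00000062312, chromosome 11, 98412470 to 98437716). It stood at 62.9, 76.1 and 78.9 CPM in WT and at 67.9, 71.8 and 70.3 CPM in KO. WT replicate 1 was the lowest of all libraries, and the KO values fell within the WT range. Its fold was 0.963 (95% interval 0.841 to 1.1, edgeR adjusted p = 0.694). Without WT replicate 1 the log2 fold change was -0.14 and the adjusted p 0.136, and its unadjusted p was then 0.0481.

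Erbb3, the neuregulin receptor with an impaired kinase that recruits PI3K (ENSMUSG00000018166, chromosome 10, 128567523 to 128589652), had 77.5, 80.6 and 83.5 CPM in WT, and 82.4, 84.6 and 79.6 CPM were measured in KO. The groups overlapped. Its fold of 1.02 had a 95% interval of 0.92 to 1.13 (edgeR adjusted p = 0.792). Per kb of exon the order in WT was Egfr (30.0 ± 2.9), then Erbb2 (13.9 ± 1.6) and Erbb3 (13.4 ± 0.5), whose WT ranges overlapped (SD, n = 3 each). In KO Egfr (28.7 ± 1.9) was again the highest. Erbb3 (13.7 ± 0.42) then stood above Erbb2 (13.4 ± 0.38) by mean, and their KO ranges overlapped.

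**Figure D3:**
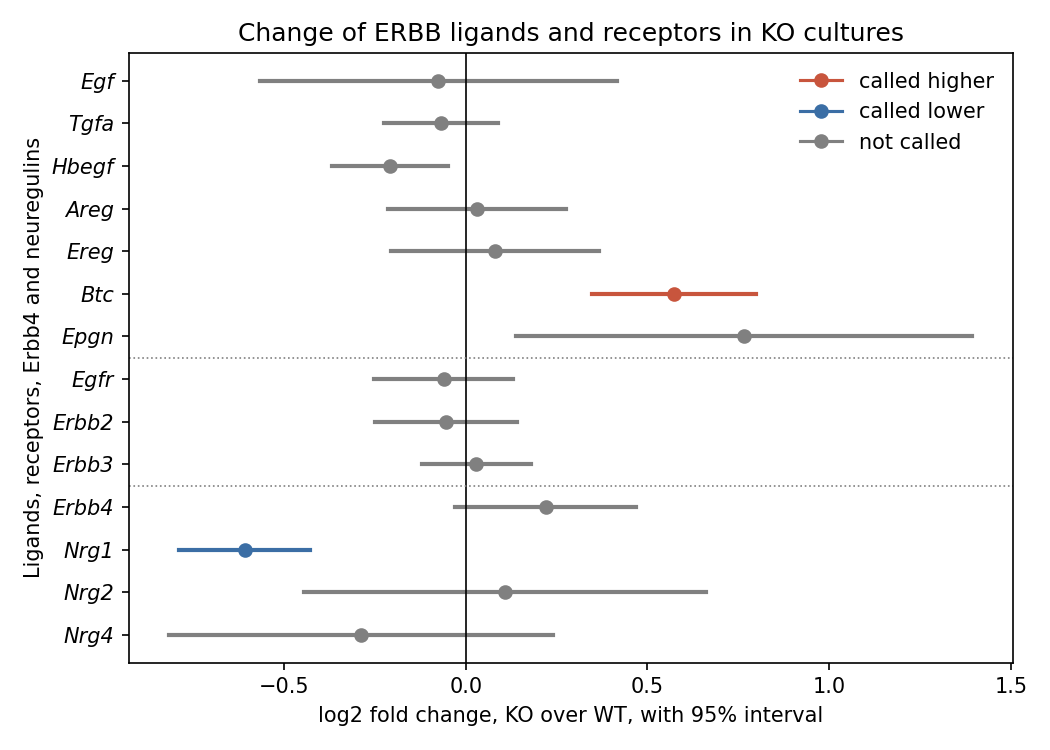
log2 fold change of KO over WT with its 95% interval for the 7 ligands, the 3 receptors, and Erbb4 and the tested neuregulins, divided by dotted lines; red is called higher, blue called lower and grey not called. Btc (0.57) and Nrg1 (-0.61) are the called genes, and the intervals of Egfr, Erbb2 and Erbb3 are short and cross 0.

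The rest of the ERBB system comprised Erbb4 and 4 neuregulin genes, ligands of ERBB3 and ERBB4. Nrg1 (chromosome 8), which encodes neuregulin 1, was at 94.9, 81.0 and 81.9 CPM in WT replicates 1 to 3 and fell in KO, where replicates 1 to 3 were at 58.3, 57.4 and 53.4 CPM. All KO values lay below all WT values. The log2 fold change was -0.61 ± 0.08 (SE), or 0.656-fold (95% interval 0.579 to 0.743), with an edgeR adjusted p of 0.000666. Without the Xist-positive libraries the log2 fold change was -0.56 and the adjusted p 0.0605. Per kb of exon Nrg1 was at 8.3 ± 0.75 in WT and 5.45 ± 0.25 in KO, which placed it between Tgfa and Areg in WT and between Areg and Btc in KO.

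Erbb4, which binds neuregulins, Btc and Hbegf products, averaged 14.3 ± 2.2 CPM over WT libraries and 16.6 ± 0.946 CPM over KO libraries, with a log2 fold change of 0.22 ± 0.11 and an edgeR adjusted p of 0.187. Without WT replicate 1 it was called, with a log2 fold change of 0.36 and an adjusted p of 0.0147. Erbb4 made up 1.75% to 2.40% of the summed receptor level per length. Nrg2 and Nrg4 stayed below 1 CPM and were not called, and Nrg3 had no read in any library.

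Outside the 10 genes, 97 tested genes of 6 lists around the ERBB pathway gave 17 higher and 8 lower calls, or 25.8% beside the 21% of all genes tested. Genes that process the ligands were called in 3 of 17 cases. Adam8, a metalloproteinase best known from leukocytes and injured epithelium, rose from 97.8, 103 and 103 CPM in WT to 266, 229 and 212 CPM in KO, a log2 fold change of 1.22 ± 0.09 (edgeR adjusted p = 1.24e-05). Adam19, a metalloproteinase that can cut neuregulin 1, rose from 2.41 ± 0.153 to 5.58 ± 0.758 CPM, by 1.21 ± 0.14 on the log2 scale. Pcsk6, a proprotein convertase, fell by 0.43 on the log2 scale, from 16.2 ± 0.222 to 12.04 ± 1.43 CPM. The calls of Adam8 and Adam19 held in all 16 alternatives, while Pcsk6 lost its call without KO replicate 3 (adjusted p = 0.0619), and with the Xist-positive libraries as a model term its log2 fold change was -0.27 (0.281), as it was without those libraries (0.371). The 2 sheddases held to act on most of the family, named here after their values were seen, were not called. Adam10, which cuts the precursors of Egf and Btc, had a fold of 1.02 (95% interval 0.904 to 1.15), and Adam17, which cuts those of Tgfa, Areg, Hbegf and others, one of 1.06 (0.941 to 1.19).

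Genes of proteins that restrain the receptors moved in both directions, with 2 of 15 higher, 2 lower and 11 not called. Of all genes tested 12% were called higher and 9.08% lower. Sh3kbp1 (CIN85, which links CBL to endocytosis) rose from 71.1 ± 1.94 to 99.0 ± 8.58 CPM, by 0.48 ± 0.08 on the log2 scale (edgeR adjusted p = 0.00214), and its call held in all 16 alternatives. Cblb, a ubiquitin ligase, rose by 0.26 ± 0.08 on the log2 scale (adjusted p = 0.0393). Ptprk, a phosphatase reported to act on EGFR, fell from 364 ± 31.2 to 276.6 ± 11.2 CPM, and Lrig2, a leucine-rich repeat protein of the family of the EGFR inhibitor LRIG1, fell by 0.37 on the log2 scale. Cblb was not called without WT replicate 2 (adjusted p = 0.0991), WT replicate 3 (0.0709), KO replicate 1 (0.13) or KO replicate 3 (0.13), nor with the replicate number as a block (0.0647). With the Xist-positive libraries as a model term Ptprk had a log2 fold change of -0.35 and was not called (0.132). Lrig2 was not called without KO replicate 1 (0.117) or KO replicate 3 (0.0844).

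Among 14 genes of endosomal receptor sorting, 4 were higher, none lower and 10 not called by edgeR. Of all genes tested 12% were called higher and 9.08% lower. No gene of the 14 was lower at an unadjusted p below 0.05, by DESeq2 or by limma-voom. Ehd1, a recycling endosome ATPase, rose from 176.4 ± 14.4 to 240.6 ± 11.7 CPM, by 0.45 ± 0.08 on the log2 scale (adjusted p = 0.00334). Hgs, of the ESCRT machinery, Rab11fip1, of recycling endosomes, and Rab7, of late endosomes, had log2 fold changes of 0.35, 0.31 and 0.28. With the Xist-positive libraries as a model term 2 of the 14 were called higher, and without those libraries 0. The call of Ehd1 held without any single library. Hgs lost its call without KO replicate 1 (0.0666) or 3 (0.0841). Rab11fip1 lost its call without WT replicate 2 (0.0501), KO replicate 1 (0.108) or KO replicate 2 (0.0535). Rab7 lost its call without WT replicate 2 (0.0588), WT replicate 3 (0.062), KO replicate 1 (0.126) or KO replicate 3 (0.0806).

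The relays from the receptor to ERK, AKT and phospholipase C gamma gave 2 higher calls among 25 genes, where 12% of all genes tested were called higher. Mapk3, which encodes the kinase ERK1, rose from 93.9, 110 and 107 CPM in WT to 172, 154 and 144 CPM in KO, a log2 fold change of 0.60 ± 0.09 (edgeR adjusted p = 0.00108). The groups did not overlap. Gab2, a docking protein, rose by 0.46 ± 0.09 on the log2 scale. The calls of Mapk3 and Gab2 held in all 16 alternatives.

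Genes that EGF is known to induce were called in 10 of 22 cases, 7 higher and 3 lower, with a median log2 fold change of 0.07, where 12% of all genes tested were higher and 9.08% lower. With the Xist-positive libraries as a model term 2 were higher and 0 lower, and without those libraries 1 and 0. Without KO replicate 1 the counts were 5 and 0, and without KO replicate 3 they were 4 and 2. Transcription factors were among the higher ones. Egr1 was at 21.6, 34.4 and 24.7 CPM for WT and 45.8, 36.7 and 52.1 CPM for KO (log2 fold change 0.74 ± 0.16, edgeR adjusted p = 0.0102), Fosl1 had a log2 fold change of 0.61 ± 0.14, and Myc rose from 172.7 ± 17.5 to 242.7 ± 13.6 CPM. Spred3, an inhibitor of RAS signalling, rose by 0.57 ± 0.10 on the log2 scale. The 3 that fell are inhibitors of the same relay, Spry1 (-0.36), Spry4 (-0.37) and Spred1 (-0.40). Dusp6, the ERK phosphatase, rose by 0.30 on the log2 scale, and Etv1 and Plaur, the urokinase receptor gene, by 0.85 and 0.31. These last 3 were outside the naming rule and were added after their values were seen.

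Several of these calls were lost when 1 library was left out, and the log2 fold changes kept their direction. Egr1 was not called without KO replicate 3 (adjusted p = 0.0505), and Spry1 (0.0814) and Spry4 (0.0597) were not called without KO replicate 1. Spred1 lost its call without KO replicate 1 (0.0808) or 3 (0.0547). Etv1 lost it without WT replicate 2 (0.0752), KO replicate 1 (0.0736) or KO replicate 2 (0.0533). Dusp6 lost it without WT replicate 2 (0.1), WT replicate 3 (0.0533), KO replicate 2 (0.0939) or KO replicate 3 (0.109). Plaur lost it without KO replicate 1 (0.11), 2 (0.0786) or 3 (0.144). Fosl1, Myc and Spred3 were called with each library left out. With the Xist-positive libraries as a model term 15 of the 25 called genes of the 6 lists lost their calls and none changed direction. Those that kept them were Nrg1, Adam8, Adam19, Sh3kbp1, Ehd1, Rab11fip1, Mapk3, Gab2, Myc and Fosl1.

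**Figure D4:**
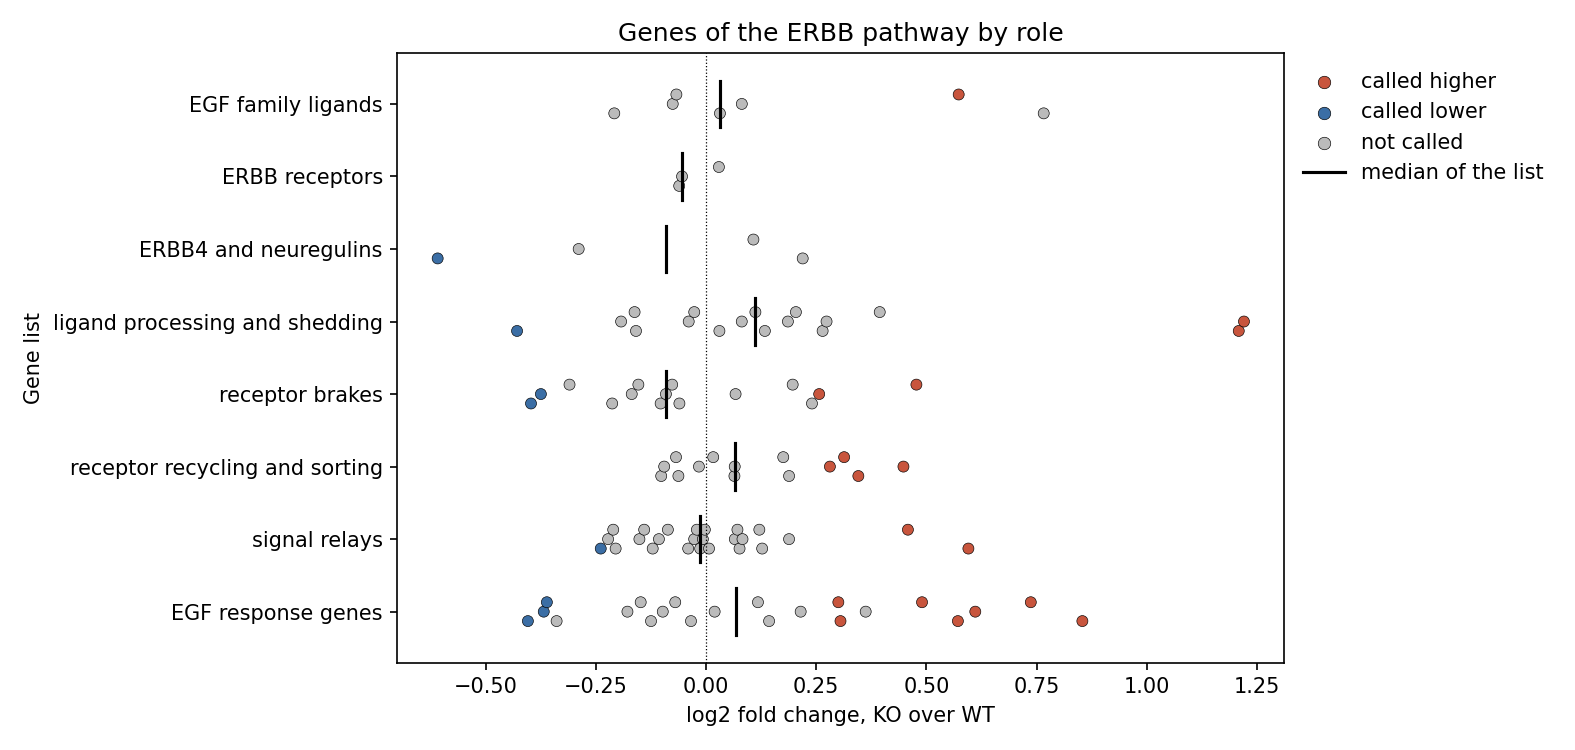
log2 fold change of KO over WT for each tested gene of 8 lists, from ligands and receptors to EGF response genes; red points are called higher, blue lower, grey not called, and the black bar is the list's median. List medians lie between -0.09 and 0.11, and the points farthest to the right, both near 1.2, are Adam8 and Adam19.

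Some markers of other cell types of the cortex were called higher in the same comparison in which Btc, Nrg1 and Adam8 were called. Summed levels were 107 to 110 CPM in WT and 173 to 209 CPM in KO for podocyte markers (5 of 10 called higher), 28.3 to 31.7 and 46.2 to 54.3 CPM for endothelial markers (6 of 12), 66.2 to 90.1 and 76.1 to 132 CPM for fibroblast and pericyte markers (7 of 10 tested) and 39.6 to 46.9 and 51.7 to 60.1 CPM for macrophage and leukocyte markers (5 of 11 tested). The fibroblast and pericyte sum overlapped between groups, with KO replicate 2, at 76.1 CPM, inside the WT range. No marker of these 4 lists was called lower by edgeR, though the myeloid gene Cd14 was lower at an unadjusted p below 0.05. Lum and Cd3e had at most 10 reads over all libraries. Among all genes tested 12% were called higher. Podxl alone made up 72.8% of the podocyte sum in WT, and it rose from 79.0 ± 1.51 to 139 ± 13.1 CPM. Acta2, which was not called, made up 65.0% of the fibroblast and pericyte sum in WT. For tubular epithelium 3 of 10 markers were called higher (Cdh16, Pax2 and Ass1) and none lower, though Epcam was lower at an unadjusted p below 0.05, and the sum overlapped, at 6911 to 8108 CPM in WT and 8028 to 8067 CPM in KO. The part of other cell types in the values of the ligands and receptors was not tested.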

How the data were processed

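RNA of 6 cultures was compared, 3 WT and 3 KO, grouped by the sample titles. The authors deposited whole-number read counts per Ensembl gene, 1 table per library, without normalization. Trimmomatic 0.38, STAR 2.7.1a, HTSeq 0.11.2 and mm10 are named per the submitters' processing notes, and the annotation release, strand setting and handling of multi-mapped reads are not stated in these sources. Antisense transcripts overlap exons of Egf, Ereg and Tgfa, and Mien1 overlaps 9 bases of Erbb2, so without strand such reads cannot be told apart. GENCODE M21 gave names, positions and merged exon lengths.

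Counts were filtered with filterByExpr (17571 genes kept), scaled by TMM and tested with edgeR 4.0.16 (R 4.3.3, quasi-likelihood, ~ group, Benjamini-Hochberg over all tested genes, threshold 0.05). The test was checked on simulated counts. SE was obtained by dividing the absolute log2 fold change by the root of F, and intervals use the t quantile. Library totals of 86078636 to 106974842 make 1 read about 0.01 CPM, so counting error matters mainly for Egf and Epgn. Alternatives used DESeq2 1.42.0 and limma 3.58.1 (voom), other scalings and filters, a replicate block, an Xist term (above 10 CPM) and left-out libraries. Genes named are the 10 members and, per pathway list, up to 4 called genes by adjusted p. Where 5 or fewer moved one way all are named. Some results of these lists are not reported here. Members and lists were chosen with earlier results of these data known. Figures were drawn with matplotlib 3.10.9.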

Additional observations from a re-analysis of the deposited data

How the results depend on the processing

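Over 16 alternatives Btc kept its direction, with log2 fold changes of 0.49 to 0.65, and 1 ligand or receptor was called higher in each except without the Xist-positive libraries, where the count was 0. None was called lower, except Hbegf (1 gene) with no filter beyond a total count of 1. With each library left out in turn these counts were 1 and 0. Uncalled log2 fold changes near 0 changed sign in places: that of Ereg was -0.0362 with the Xist term and -0.0374 without the Xist-positive libraries, and with libraries left out in turn values ran from -0.264 to 0.0948 for Egf, -0.0325 to 0.116 for Areg, -0.0107 to 0.235 for Ereg, -0.11 to 0.0305 for Egfr and -0.137 to 0.0075 for Erbb2. The cause was not tested. Over all genes, 3698 calls (2102 higher, 1596 lower) became 1163 (878 and 285) with the Xist term and 907 (728 and 179) without the Xist-positive libraries, and ran from 1683 to 3766 (1228 to 2142 higher, 455 to 1624 lower) with single libraries left out. These fits have fewer residual degrees of freedom. Without the Xist-positive libraries KO replicate 1 is assumed to vary as WT does. Upper-quartile scaling made 2323 higher and 1280 lower calls. Of 25 called pathway genes 6 were called in all alternatives and none changed sign, while 15 were lost with the Xist term and 19 without the Xist-positive libraries. Same-numbered libraries did not deviate together (correlations 0.04, -0.15 and 0.03 over 17571 genes). Libraries of unlike number had correlations of -0.11 to 0.10. With 3 libraries per group these values cannot decide whether the numbers pair the samples. With the replicate block 2139 genes were higher and 1455 lower, Btc had a log2 fold change of 0.57 (edgeR adjusted p = 0.00202), and 2 pathway calls were lost. Egf and Epgn were not tested with the filter on a mean CPM of 1. Egf and Epgn, at 22 to 104 reads per library, are the members whose precision counting limits.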
